A study of Mus musculus with 47 samples.

Results

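Interferon-stimulated genes are genes whose transcription is switched on when a cell senses interferon, the cytokine that warns tissue of infection or injury. They were followed here in the prefrontal cortex (PFC) of mice over the week that follows chronic intermittent ethanol (CIE). The set holds 37 genes listed by symbol for that known induction, and no value of these arrays served as a threshold for membership. A gene was read only from probesets (groups of array probes for 1 transcript) that are annotated with its symbol or an older alias and no other gene, and where several qualified the one with the highest mean was used. Under this rule 35 of the 37 genes were measured, among 18193 genes and 45037 probesets in all. No probeset of Ifi44 was listed and that of Isg15 carried a second symbol, so these genes have no value below, and 15 of the measured genes had more than 1 probeset.

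Adult male C57BL/6J mice went through 4 cycles, each with 16 h a day in inhalation chambers on 4 days and then 7 days without exposure. CIE mice breathed ethanol vapor held at 10 to 13 mg per liter of air and were injected with ethanol (1.6 g/kg) and pyrazole (1 mmol/kg), an alcohol dehydrogenase inhibitor, when a cycle began. Control (Ctrl) mice breathed air and were injected with saline and the same pyrazole dose, so pyrazole, handling and chambers were common to all 8 groups. PFC of individual mice was taken 0h, 8h and 72h or 7d after the last session, with 1 array a mouse, 6 mice in each Ctrl group and in CIE at 0h, 72h and 7d, and 5 mice in CIE at 8h. At 8h the labels divide the mice into repeat group 1 (3 Ctrl and 3 CIE) and repeat group 2 (3 Ctrl and 2 CIE), whereas all mice of the other times belong to repeat group 1. The labels do not say what a repeat group is, and the authors used it as the batch in their batch correction. Mice are named below by the number in their label.

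Interferons are released when sensor proteins such as those encoded by Ifih1 and Ddx58 meet foreign nucleic acid. Type I interferon acts on genes through the interferon-stimulated response element (ISRE), which is bound by a complex that holds STAT2 and IRF9, and interferon gamma acts on many genes through the gamma-activated site (GAS). In brain, microglia, astrocytes, endothelial cells and neurons can all respond, and the genes hold a low resting level without infection. In whole tissue, fewer cells of a type and less RNA per cell cannot be told apart.

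Values were log2 expression levels from 2.82 to 14.66, with array medians between 6.39 and 6.42, and no arrays held identical values. The array of CIE 8h mouse 15, in repeat group 2, stood apart. Its mean correlation with the other arrays was 0.967, where the others had 0.985 to 0.994. For some genes the value at 8h without mouse 15 is given beside the results, and other genes moved as well. Without it the log2 difference at 8h, CIE minus Ctrl, went from -0.04 to 0.26 for Ifit3 and from 0.95 to 0.70 for Gbp2. It went from 1.33 to 1.13 for Iigp1, from -0.03 to -0.21 for Oasl1 and from 0.03 to -0.18 for Samd9l. Cortical neurons were well represented, with Tbr1 at a mean log2 level of 10.44, Neurod6 at 10.87 and a neuronal marker list at 12.05 to 12.44 in every mouse. A striatal marker list varied far more, from 7.83 to 10.14, and was highest in CIE 0h mouse 11. The means of 13 of the 35 genes lay below the median of all probesets, and their changes are therefore read from dim signals.

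Between CIE and Ctrl mice, interferon-stimulated genes leaned upward at 0h and 8h and showed no lean at 72h and 7d. In the fit of all mice, 1 of the 35 genes passed a false discovery rate of 0.01 at a single time (Irf8 at 0h). The lean at 8h differed between the repeat groups, with a median difference of 0.01 in repeat group 1 and 0.74 in repeat group 2, which holds 2 CIE mice. The median of the 35 log2 differences, CIE minus Ctrl, was 0.21 at 0h, 0.32 at 8h, -0.002 at 72h and -0.02 at 7d, while the median over all genes was 0.01, 0.02, -0.004 and -0.01. The difference was above 0 for 30 of 35 genes at 0h, 29 at 8h, 17 at 72h and 16 at 7d, where 52.7%, 53.7%, 48.4% and 47.2% of all genes lay above 0. It exceeded 0.5 in either direction for 4, 13, 0 and 1 of them. Single mice moved these medians by over 1.5 times: that at 0h was 0.10 without Ctrl mouse 12, 0.14 without CIE mouse 11, 0.32 without CIE mouse 43 and 0.34 without Ctrl mouse 20. That at 8h was 0.20 without Ctrl mouse 42, 0.49 without Ctrl mouse 66 and 0.50 without CIE mouse 40. At 8h the highest value was 1.33, for Iigp1, and the lowest was -0.31, for Sp100.

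Calls were made with limma at a false discovery rate (FDR) of 0.01 over all probesets. At 0h, 1 gene rose (Irf8) and none was called lower, against 3.69% of all probesets called higher, 3.58% called lower and 7.28% in all. At an unadjusted p of 0.05, 7 genes passed at 0h, where 28.6% of probesets did. At 8h limma called 0 of the 35, where 3.39% of probesets were called, although 16 passed an unadjusted p of 0.05, 15 of them with CIE higher, against 28.1% and 15.5% of probesets. With repeat group as a term, Ddx58 was called higher (adjusted p = 0.00781) and Sp100 lower (0.00800) at 8h, and in repeat group 1 alone 1 gene, Sp100, was called lower. At 8h and an FDR of 0.05, 5 genes (Sp100, Ddx58, Gbp7, Irf9 and Cxcl10) passed, against 11.1% of probesets. Without mouse 15, 1 gene did (Cxcl10, adjusted p = 0.0480), against 5.54% of probesets, and without Ctrl mouse 66 it was 10, against 6.69%. limma called 0 genes at 72h (0.528% of probesets; 4 genes at an unadjusted p of 0.05, where 14.3% of probesets passed). It also called 0 at 7d (0.948% of probesets; 8 genes at an unadjusted p of 0.05, where 17.5% of probesets passed). A test of any ethanol effect over the 4 times together called 3 genes, Irf8, Oasl1 and Sp100, against 13.6% of probesets. It called 5 without Ctrl 0h mouse 20 and 1 without any of 11 other mice (Ctrl 0h mice 12, 48 and 78, Ctrl 72h mouse 34, Ctrl 7d mouse 80, CIE 0h mouse 72, CIE 72h mouse 35 and CIE 7d mice 27, 37, 45 and 65). With all mice and no repeat group term, the counts of the 35 genes called at an FDR of 0.01 were small. In a set of 35 they lie within few genes of the shares of all probesets, at each time and for any ethanol effect. The counts are therefore no result about the set. For the other fits no share of all probesets at an FDR of 0.01 is given. At 8h the share past an unadjusted p of 0.05 with CIE higher was above that of all probesets.

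**Figure D1:**
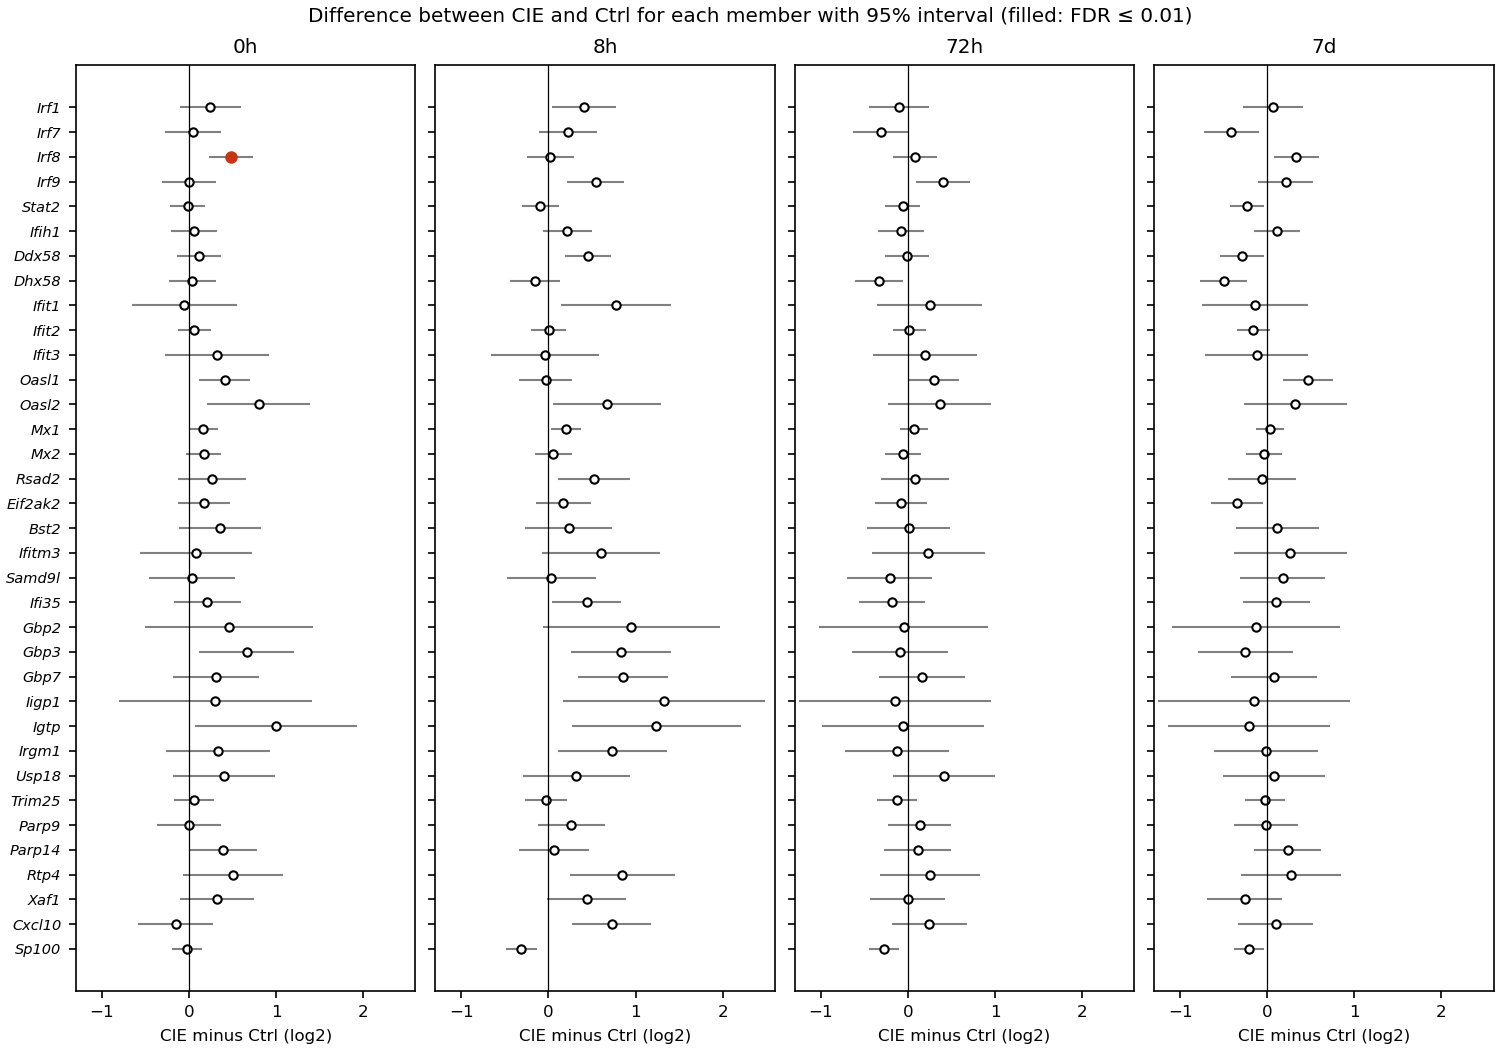
Difference between CIE and Ctrl mice (log2, x axis) with its 95% confidence interval for each of the 35 genes (rows) at 0h, 8h, 72h and 7d after the last exposure; a filled point passed an FDR of 0.01. Irf8 at 0h is the only filled point, and at 8h the intervals of 5 of the 6 interferon-inducible GTPases (Gbp2 excepted) lie above 0.

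Among the transcription factors that carry the response, Irf8 rose at 0h, Irf9 passed an FDR of 0.05 at 8h, and Irf1, Irf7 and Stat2 passed in no comparison of CIE with Ctrl. Irf8, a factor of myeloid cells that also works downstream of interferon gamma, had log2 levels of 6.27 to 6.76 (median 6.42) in Ctrl mice at 0h and of 6.62 to 7.26 (median 6.91) in CIE mice. Only Ctrl mouse 20 reached into the CIE range. Irf8 rose by 0.48 ± 0.13 (SE, 1.40-fold, adjusted p = 0.00701) at 0h and passed the test of any ethanol effect (adjusted p = 0.00880). At 7d the levels of the groups did not overlap, with 6.15 to 6.53 (median 6.36) in Ctrl and 6.61 to 6.83 (median 6.66) in CIE mice, and the difference of 0.33 did not pass (adjusted p = 0.133). At 8h and 72h the differences were 0.02 and 0.08. The other, dimmer probeset of Irf8 differed by -0.01 at 0h, so the call rests on 1 probeset. The call is also lost when any of 7 single mice is left out (Ctrl 0h mice 12, 48, 56 and 78 or CIE 0h mice 11, 67 and 72), with an adjusted p of at most 0.0248. Irf8 marks microglia as well. Of 14 microglial markers measured at 0h none rose and 1 fell, where 3.69% and 3.58% of all probesets did, with a median difference of -0.08. The mean of the microglial list at 0h ran from 8.61 to 8.97 in Ctrl and from 8.19 to 9.04 in CIE mice, and its part in the Irf8 result was not tested.

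Irf9, the DNA-binding subunit of the type I interferon complex, differed among harvest times in both arms. At 8h its log2 levels were 6.54 to 7.78 (median 6.96) in Ctrl mice and 7.28, 7.29, 7.67, 7.78 and 7.83 in CIE mice. Ctrl mouse 66 alone stood among the CIE mice, and all other Ctrl mice lay below them. The difference was 0.54 ± 0.16 (SE, adjusted p = 0.0272), without mouse 66 it was 0.69 (adjusted p = 0.00572), and without CIE mouse 15 it was 0.52 (0.0700). At 72h it was 0.40 ± 0.16 (adjusted p = 0.185), with 6.53 to 7.32 in Ctrl and 6.92 to 7.52 in CIE mice. In Ctrl mice Irf9 went from a mean of 7.33 ± 0.32 (SD, n = 6) at 0h through 7.03 ± 0.41 and 6.81 ± 0.28 to 6.52 ± 0.17 at 7d. It was the only one of the 35 genes to pass a test of any difference among the Ctrl groups (adjusted p = 0.00476), where 1.72% of probesets passed. That call was lost without any of Ctrl 0h mice 20, 48, 56 and 78 or Ctrl 7d mice 28 and 70, and 2 genes were called without Ctrl 0h mouse 12.

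Irf7, the factor that amplifies type I interferon production, was level in Ctrl mice, with group means of 5.71, 5.72, 5.72 and 5.70 from 0h to 7d. At 7d its log2 levels were 5.47 to 5.91 (median 5.71) in Ctrl and 5.12 to 5.43 (median 5.30) in CIE mice, without overlap, and the difference was -0.41 ± 0.16 (SE, adjusted p = 0.140). At 0h, CIE mouse 11 stood at 6.74 while its 5 group mates lay between 5.50 and 5.67. Stat2, the partner of Irf9, gave differences of -0.02, -0.09, -0.06 and -0.23 from 0h to 7d. Its levels at 8h were 6.26, 6.80, 6.96, 6.96 and 6.97 in CIE mice, of which mouse 15 was the low one, and 6.75 to 6.99 (median 6.89) in Ctrl mice. The smallest adjusted p for Stat2 was 0.189, at 7d. Irf1, an early factor of the interferon gamma response, differed by 0.25 at 0h and 0.41 at 8h (adjusted p = 0.365 and 0.127).

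**Figure D2:**
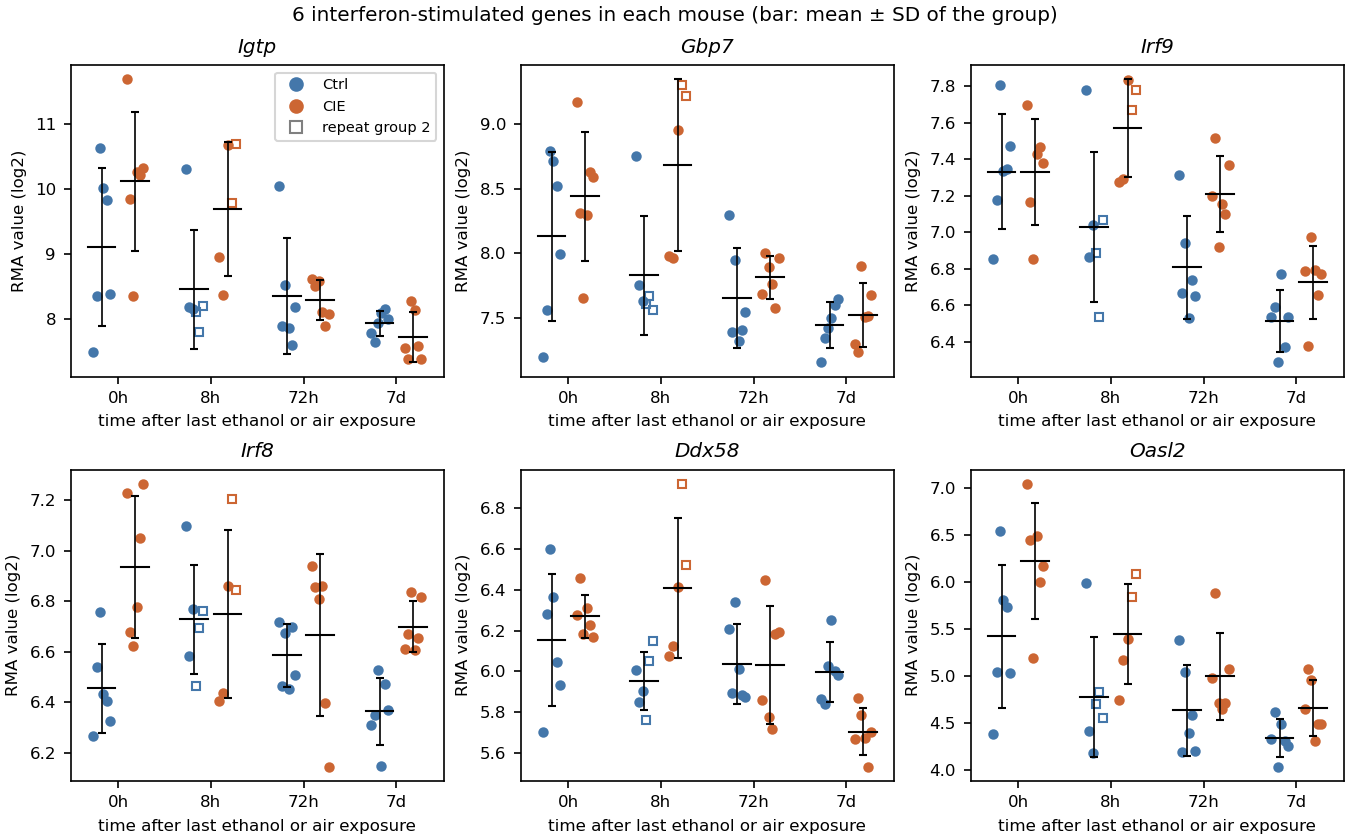
Log2 expression level (y axis) of 6 interferon-stimulated genes in every mouse, set out by time since exposure ended (x axis), with the mean ± SD of each group as a bar; open squares are mice of repeat group 2. Ctrl 8h mouse 66 is the highest point of its group for Igtp, Gbp7, Irf9, Irf8 and Oasl2, and no CIE mouse exceeds 5.87 for Ddx58 at 7d.

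Of the cytosolic RNA sensors, Ddx58 gave the only call for an ethanol effect that differed between times, and Dhx58 gave the lowest difference at 7d. Ddx58, which encodes RIG-I, had log2 levels of 5.76 to 6.15 (median 5.95) in Ctrl mice at 8h and of 6.07, 6.12, 6.41, 6.52 and 6.92 in CIE mice. The 3 highest CIE mice lay above every Ctrl mouse. The difference at 8h was 0.46 ± 0.13 (SE, 1.37-fold, adjusted p = 0.0209), and without mouse 15, the highest, it was 0.33 (0.124). At 7d it had the opposite sign, with 5.84 to 6.25 (median 5.99) in Ctrl and 5.53 to 5.87 (median 5.69) in CIE mice, a difference of -0.29 (adjusted p = 0.204). The difference between these effects, 8h minus 7d, was 0.75 ± 0.18 (SE, adjusted p = 0.00993), and Ddx58 was the 1 gene of 35 called in that test, where 1.80% of probesets were. Neither of the 2 other, dimmer probesets of Ddx58 showed this, with differences of 0.18 and 0.19 at 8h, 0.26 and 0.01 at 7d, and -0.08 and 0.18 for 8h minus 7d (adjusted p = 0.784 and 0.564), so the call rests on 1 probeset. The call was just inside the threshold and was lost in 35 of the 47 fits that left out 1 mouse, including the one without mouse 15 (0.62, adjusted p = 0.0258). Other comparisons of ethanol effects between times gave no call by limma: 0 of 35 for 8h minus 0h (3.41% of probesets; 5 genes at an unadjusted p of 0.05, against 24.7%). For 7d minus 0h it was also 0 of 35 (0.273% of probesets; 5 genes at an unadjusted p of 0.05, against 16.6%).

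Dhx58, the LGP2 gene, had log2 levels at 7d of 4.84 to 5.26 (median 5.06) in Ctrl and of 4.41 to 4.87 (median 4.52) in CIE mice. CIE mouse 13 was the only one to touch the Ctrl range. The difference was -0.50 ± 0.13 (SE, adjusted p = 0.0266), the only one of the 35 within an FDR of 0.05 at 7d, where 3.63% of probesets were. Dhx58 is among the dim probesets, and of its other probesets, dimmer still, one rose at 0h by 0.28 (adjusted p = 0.00651) and differed by 0.09 at 7d. It was the only call at any time among the 21 further probesets of the 35 genes. Of all probesets, 3.69% were called higher at 0h and 7.28% in either direction. Ifih1, which encodes the sensor MDA5, differed by 0.05, 0.22, -0.08 and 0.11 from 0h to 7d.

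The 13 measured antiviral effectors lay above 0 at 0h in 12 cases and at 8h in 11, with median differences of 0.17 and 0.20. Oasl1, a 2′-5′-oligoadenylate synthetase-like gene that restrains Irf7 translation, had log2 levels at 0h of 4.60 to 5.00 (median 4.75) in Ctrl and of 5.05 to 5.26 (median 5.20) in CIE mice, without overlap. The difference was 0.41 ± 0.14 (SE, adjusted p = 0.0460). At 7d it was 0.47 ± 0.14 (adjusted p = 0.0568), with 4.80 to 5.14 in Ctrl and 4.93 to 5.56 in CIE mice, and at 8h it was -0.03. Oasl1 passed the test of any ethanol effect (adjusted p = 0.00706). Mx1, an antiviral GTPase that is defective in most laboratory mouse strains, also had CIE mice above all Ctrl mice at 0h, by 0.001 between the nearest mice, with a difference of 0.16 (adjusted p = 0.167). Groups did not overlap, with CIE higher, for these 2 of 35 genes at 0h, against 3.48% of all genes. At 7d this held for Irf8 with CIE higher (1.63% of all genes) and for Irf7 with CIE lower (1.66%), and at 8h for 0 genes with CIE higher (3.98%) and 0 with CIE lower (2.70%).

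Oasl2, a paralog of Oasl1 with antiviral activity, spread far more widely. Its log2 levels at 0h were 4.39 to 6.55 (median 5.39) in Ctrl and 5.20 to 7.05 (median 6.31) in CIE mice. The ranges overlapped over more than 1 log2 unit. The difference of 0.80 ± 0.29 (SE, 1.74-fold) did not pass (adjusted p = 0.0555). Chosen after their values were seen, Ifit1, whose product binds viral RNA caps, differed by 0.78 at 8h (adjusted p = 0.0960), Rsad2, which encodes viperin, by 0.52 (0.0839) and Ifitm3, an inhibitor of virus entry, by 0.60 (0.237). Ifit2, Mx2 and Samd9l stayed between -0.21 and 0.18 at all times.

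Interferon-inducible GTPases, which attack the vacuoles of intracellular pathogens, had the largest median difference at 0h and 8h and the largest median within-group SD (0.68, log2) of the 6 role groups. All 6 lay above 0 at 0h and at 8h, with medians of 0.40 and 0.90, and 1 of 6 did at 72h and at 7d, with medians of -0.07 and -0.14. Gbp3 had log2 levels at 0h of 7.02 to 8.90 (median 7.95) in Ctrl and of 7.63 to 9.34 (median 8.63) in CIE mice, with ranges that mostly overlapped. Its difference was 0.66 ± 0.27 (SE, adjusted p = 0.0924), and at 8h it was 0.83 ± 0.28 (adjusted p = 0.0503). Gbp7 had levels at 8h of 7.56 to 8.76 (median 7.65) in Ctrl mice and of 7.97, 7.98, 8.95, 9.22 and 9.31 in CIE mice. Ctrl mouse 66 lay at 8.76 and the next Ctrl mouse at 7.75, below all CIE mice. The difference in Gbp7 at 8h was 0.85 ± 0.26 (SE, 1.81-fold, adjusted p = 0.0264), while its other probeset differed by 0.32 (adjusted p = 0.404). Without mouse 15 the difference was 0.70 (adjusted p = 0.112). Chosen after their values were seen, Igtp (Irgm3) differed by 1.00 at 0h and 1.24 at 8h (2.36-fold, adjusted p = 0.139 and 0.0840). Its levels at 8h were 8.37, 8.94, 9.78, 10.69 and 10.69 in CIE mice and 7.80 to 10.30 (median 8.16) in Ctrl mice, of which mouse 66 again was the high one. Iigp1 differed by 1.33 at 8h (95% interval 0.17 to 2.49; adjusted p = 0.119), Gbp2 by 0.95 (-0.06 to 1.96; 0.209) and Irgm1 by 0.73 (0.11 to 1.36; 0.112). At this spread, differences of over 2-fold between groups of 5 and 6 mice did not reach the threshold.

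The promoters of these GTPases share a sequence feature. The genes were listed for known induction by interferon, which acts through the ISRE, so ISRE-like matches are not independent of how the genes were chosen. In RefSeq windows of 250 bases before and 50 after a transcription start (GRCm38.p6), the ISRE core, read as GAAA and, after any 2 bases, a second GAAA on either strand, was found for 16 of the 29 genes, out of the 37 listed, that had a window and in 3.44% of 32851 windows of all genes. All 5 GTPases with a window held it. The GAS core TTCNNNGAA, which reads the same on both strands, was found for 9 of the 29 genes and in 8.30% of all windows. The motifs can overlap each other, and a match is a description of the letters, not a shown binding site. Windows are printed 5′ to 3′ in the sense of the gene, with ISRE-like and GAS-like matches in capitals. They are given for 3 of the 5 GTPases with a window and for Ddx58 and Irf8, the genes called between times and at 0h.
Igtp (chr11:58199306-58199605, plus strand): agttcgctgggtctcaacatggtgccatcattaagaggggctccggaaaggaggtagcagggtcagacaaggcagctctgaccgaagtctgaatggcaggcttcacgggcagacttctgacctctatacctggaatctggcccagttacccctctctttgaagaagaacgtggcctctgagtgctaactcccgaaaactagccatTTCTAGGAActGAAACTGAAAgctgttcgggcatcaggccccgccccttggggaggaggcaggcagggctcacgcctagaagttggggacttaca
Irgm1 (chr11:48871371-48871670, minus strand): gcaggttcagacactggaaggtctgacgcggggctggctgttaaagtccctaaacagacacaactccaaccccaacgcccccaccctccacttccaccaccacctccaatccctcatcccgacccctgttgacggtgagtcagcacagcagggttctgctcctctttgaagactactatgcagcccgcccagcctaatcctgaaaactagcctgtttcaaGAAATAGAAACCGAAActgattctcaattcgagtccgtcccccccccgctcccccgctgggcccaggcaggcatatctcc
Gbp7 (chr3:142530086-142530385, plus strand): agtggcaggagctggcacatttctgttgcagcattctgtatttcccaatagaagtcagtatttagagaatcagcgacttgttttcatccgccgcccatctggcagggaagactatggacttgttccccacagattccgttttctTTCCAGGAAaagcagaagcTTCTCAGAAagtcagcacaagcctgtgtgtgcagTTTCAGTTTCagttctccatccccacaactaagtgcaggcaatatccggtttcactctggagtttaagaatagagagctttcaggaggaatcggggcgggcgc
Ddx58 (chr4:40239776-40240075, minus strand): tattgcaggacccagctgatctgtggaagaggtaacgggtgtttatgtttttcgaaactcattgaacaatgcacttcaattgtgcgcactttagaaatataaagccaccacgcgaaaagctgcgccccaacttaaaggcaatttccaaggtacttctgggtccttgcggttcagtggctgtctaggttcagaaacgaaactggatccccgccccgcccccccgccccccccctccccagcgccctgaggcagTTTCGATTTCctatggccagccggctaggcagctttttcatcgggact
Irf8 (chr8:120736108-120736407, plus strand): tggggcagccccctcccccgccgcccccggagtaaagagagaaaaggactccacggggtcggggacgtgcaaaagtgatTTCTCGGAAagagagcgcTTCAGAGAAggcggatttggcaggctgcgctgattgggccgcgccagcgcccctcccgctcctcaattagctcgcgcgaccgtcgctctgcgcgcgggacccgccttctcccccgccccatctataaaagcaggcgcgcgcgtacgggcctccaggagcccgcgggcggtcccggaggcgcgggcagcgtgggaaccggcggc
Counted from the start site, the GAS-like match of Igtp begins at base -45 and its ISRE-like match at -34, and the overlapping ISRE-like matches of Irgm1 begin at -30 and -24. Gbp7 has GAS-like matches at -106 and -87 and an ISRE-like match at -53. Ddx58 has an ISRE-like match at base 2, and Irf8 has GAS-like matches at -171 and -153 and no ISRE-like match. A second window of Irf8 holds neither motif, nor do those of Irf7, Irf9, Oasl1, Oasl2 and Sp100.

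None of the 4 measured genes of ISG15 conjugation, ubiquitin and ADP-ribosylation passed at any time, and all 4 lay above 0 at 0h, with a median of 0.22. Usp18 at 72h had the highest difference of the 35 genes at that time. Usp18, which removes ISG15 and dampens the receptor, differed by 0.40 at 0h, 0.32 at 8h and 0.42 at 72h (adjusted p = 0.381, 0.510 and 0.572). Trim25, a ligase that activates RIG-I, stayed between -0.13 and 0.06. Parp9 and Parp14, ADP-ribosyltransferases, stayed between -0.01 and 0.39.

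Among the remaining genes, Sp100 was lower in CIE mice at 8h where most others lay above 0. Sp100, a nuclear body protein, had log2 levels at 8h of 4.62 to 5.33 (median 5.03) in Ctrl mice and of 4.59, 4.63, 4.65, 4.71 and 4.73 in CIE mice. Ctrl mice 50 and 42 reached into or next to the narrow CIE range. The difference was -0.31 ± 0.09 (SE, adjusted p = 0.0206) at 8h, or -0.30 (0.0520) without mouse 15 and -0.24 (0.0808) without mouse 66, and -0.28 ± 0.09 (0.0768) at 72h, and Sp100 passed the test of any ethanol effect (adjusted p = 0.00228). Its probeset is dim, and the other probeset differed by 0.16 at 8h (adjusted p = 0.419), so the direction rests on 1 probeset. Cxcl10, a T cell attractant (named after its values were seen), had levels at 8h of 4.68 to 5.98 (median 5.09) in Ctrl mice and of 5.47, 5.70, 5.80, 6.00 and 6.43 in CIE mice. Ctrl mouse 66 was the only Ctrl mouse within the CIE range. The difference was 0.73 ± 0.22 (SE, adjusted p = 0.0307). Rtp4 differed by 0.85 at 8h (adjusted p = 0.0572) and Xaf1 by 0.44 (0.192).

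More genes passed in tests along the time course within an arm, chosen after the values were seen, than in tests of CIE against Ctrl. A test of any difference among the 4 CIE groups called 17 of the 35 genes, where 10.0% of probesets were called. They were Irf7, Irf9, Ddx58, Dhx58, Ifit1, Oasl2, Rsad2, Eif2ak2, Usp18, Rtp4, Xaf1 and all 6 GTPases. The 17 became 10 without CIE 7d mouse 37 and 11 without CIE 7d mouse 45 or 65. In CIE mice, 12 genes were higher at 0h than at 7d and 0 lower (2.08% and 1.30% of probesets), and 12 were higher at 8h than at 7d and 0 lower (3.79% and 2.29%), by limma. All CIE 7d mice belong to repeat group 1, and the 12 genes of 8h minus 7d became 5 with repeat group as a term and 0 in repeat group 1 alone. The median difference was 0.60 for 0h minus 7d, with 34 of 35 above 0, and 0.65 for 8h minus 7d, with 32 above 0, and both share the CIE 7d mice. Igtp was higher at 0h than at 7d by 2.40 ± 0.46 (SE, adjusted p = 0.000731), Oasl2 by 1.56 ± 0.29 (0.000546) and Eif2ak2, which encodes the kinase PKR, by 0.83 ± 0.15 (0.000290).

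Ctrl mice leaned the same way. The median of 0h minus 7d in Ctrl mice was 0.48, with 32 of 35 above 0, and that of 8h minus 7d was 0.28, with 31 above 0. In Ctrl mice 1 gene was called higher at 0h than at 7d (Irf9, 0.82, adjusted p = 0.00722; 0.0733% of probesets). For 8h minus 7d in Ctrl mice limma called 0 of 35 (0.0111% of probesets; 6 genes at an unadjusted p of 0.05, against 15.2%). Igtp, for instance, differed by 1.18 between Ctrl 0h and 7d (adjusted p = 0.186). That 12 genes passed in CIE and 1 in Ctrl mice does not show that the arms differ. The test of an ethanol effect that differs among the 4 times called 0 of 35 by limma (3.77% of probesets; 6 genes at an unadjusted p of 0.05, against 27.9%), and at an FDR of 0.05 it called Ddx58 (adjusted p = 0.0272; 11.5% of probesets). The 12 genes of CIE 0h minus 7d became 7 without CIE 0h mouse 11 or 17 or CIE 7d mouse 45, and 20 without Ctrl 8h mouse 66, which enters that test through the pooled variance alone. The 12 of CIE 8h minus 7d became 6 without CIE 8h mouse 15 or 23 or CIE 7d mouse 65, and 7 without CIE 8h mouse 69 or CIE 7d mouse 37 or 45. The call of Irf9 in Ctrl 0h minus 7d was lost without any of 5 Ctrl 0h mice (2, 20, 48, 56 and 78) or 4 Ctrl 7d mice (28, 46, 70 and 80).

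Wide spread between mice of 1 group was common to most of the set. The median within-group SD of the 35 genes was 0.341 on the log2 scale, against 0.156 for all genes. Of the 35, 19 lay in the top 5% of genes by SD, 9 in the top 1%, and 33 above the median gene. Iigp1 (0.99), Gbp2 (0.87) and Igtp (0.83) had the widest SDs, and Igtp covered 7.37 to 11.69 over the 47 mice, a 19.9-fold range. The spread narrowed with time in Ctrl mice, where the median SD of the 35 genes was 0.43 at 0h, 0.41 at 8h, 0.35 at 72h and 0.18 at 7d, while that of all genes was 0.15, 0.11, 0.13 and 0.14. In CIE mice it was 0.35, 0.41, 0.28 and 0.26, and no test of these SDs was made. For the 6 GTPases it was 0.92 at 0h and 0.23 at 7d in Ctrl mice, and 0.83 and 0.39 in CIE mice.

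**Figure D3:**
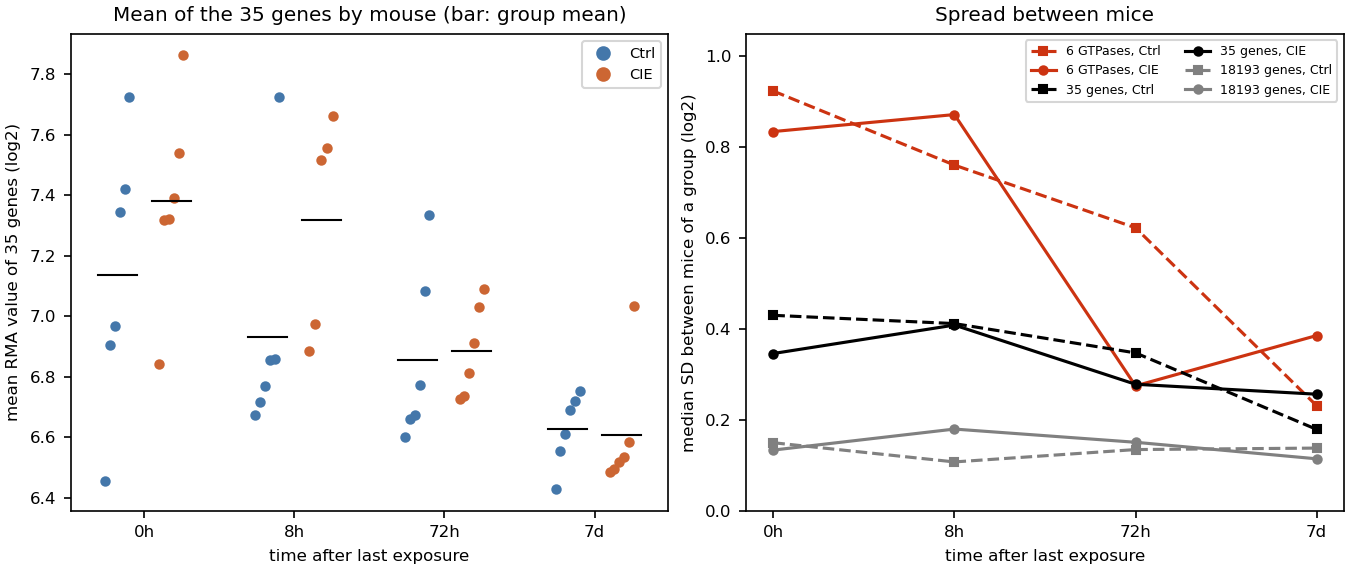
Left, mean log2 level over the 35 genes (points, 1 a mouse) and the mean of each group (bars) against time since exposure ended. Right, the median over genes of the SD between mice of a group (log2) for the 6 GTPases, all 35 genes and 18193 genes, which for the 35 genes falls from 0.43 to 0.18 in Ctrl mice.

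In several groups the spread was shared across genes, since the same mouse was highest or lowest for most of the set. In CIE mice at 8h and 72h the top mouse was highest for 17 and 16 of the 35 genes. How often these mice were highest or lowest over all genes is not given. Ctrl 8h mouse 66 was the highest of its group for 30 of 35 genes, and its mean over the 35 was 7.72 where the other Ctrl mice at 8h had 6.67 to 6.86. Ctrl 0h mouse 20 was highest for 26 genes (mean 7.72), CIE 7d mouse 27 for 23 (7.03), and Ctrl 72h mouse 24 and CIE 0h mouse 11 for 22 each (7.33 and 7.86). At the other end, Ctrl 0h mouse 12 was lowest for 28 genes and CIE 0h mouse 43 for 27. High mice thus occurred in air-exposed groups as well as in CIE groups. At 7d in Ctrl mice the top mouse was highest for 10 genes only, and the means of the 6 mice lay between 6.43 and 6.75.

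**Figure D4:**
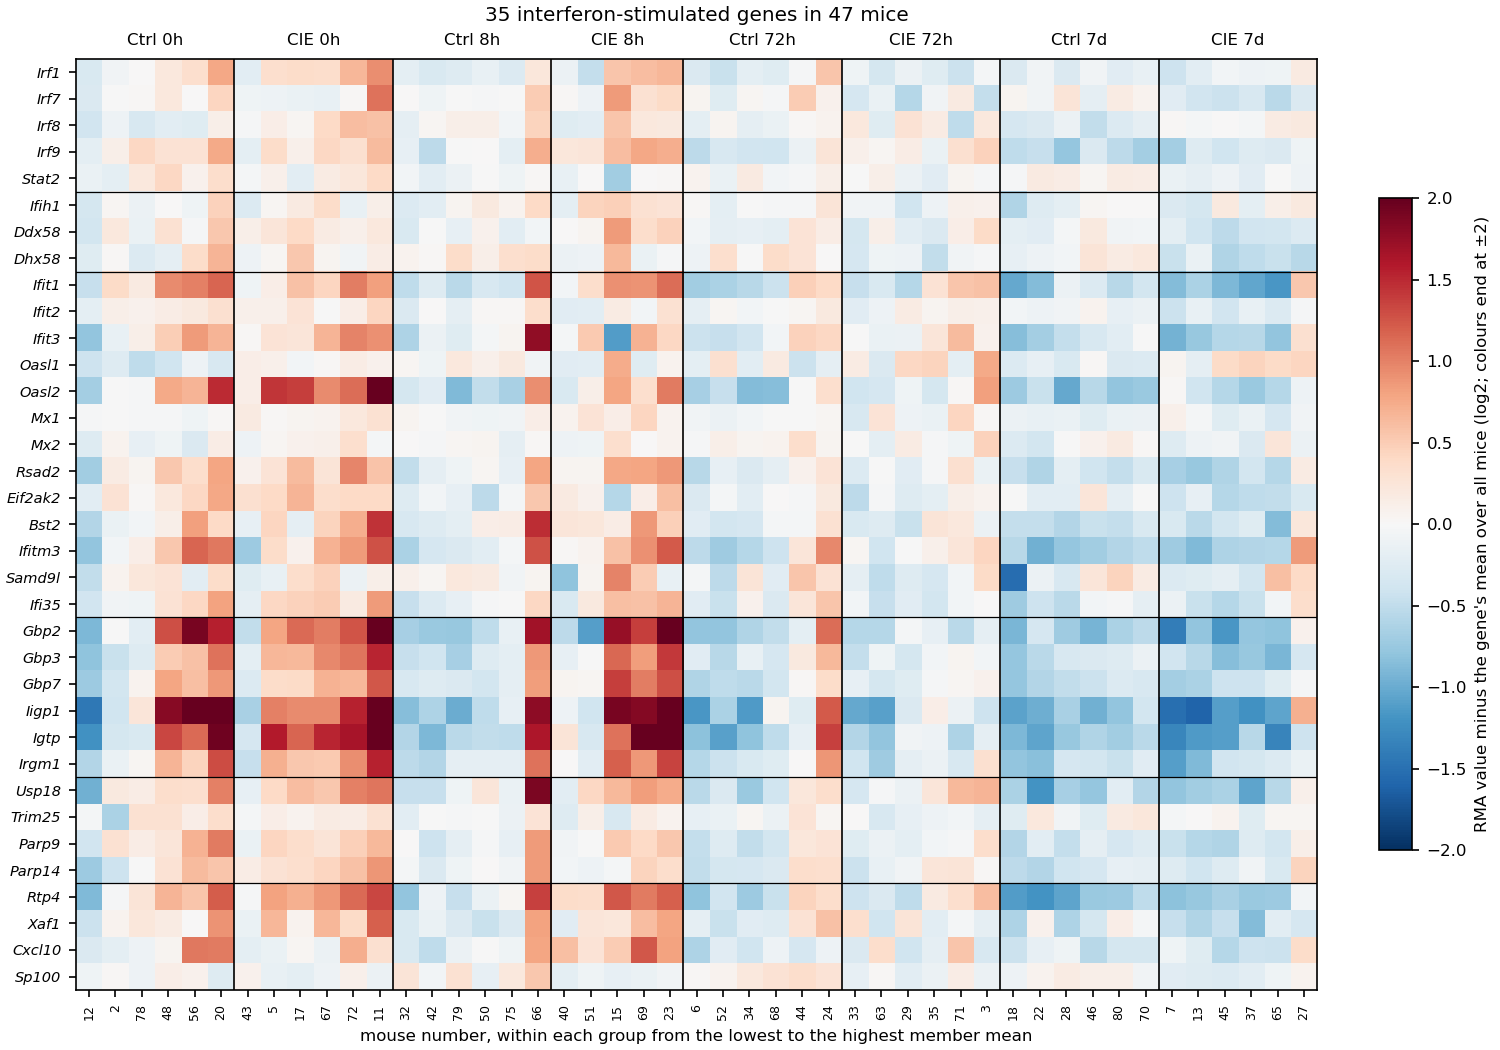
Log2 level of each of the 35 genes (rows) minus the gene's mean over all 47 mice (colour, ends at ±2), with mice (columns) ordered within each group by their mean over the genes. Whole columns are red, such as Ctrl 8h mouse 66 and Ctrl 0h mouse 20, and Gbp2, Iigp1 and Igtp reach the ends of the scale.

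Marker lists of other cell types moved with some of these mice and not with others. In Ctrl 8h mouse 66 the mean of the list of monocytes, macrophages and neutrophils lay 0.04, that of lymphocytes 0.01, that of microglia 0.15, that of astrocytes 0.21 and that of choroid plexus and meninges 0.33 above its group mean, and the endothelial list differed by -0.01. In CIE 7d mouse 27 the list of choroid plexus and meninges lay 0.94, that of monocytes, macrophages and neutrophils 0.76 and the endothelial list 0.46 above the group mean, and in Ctrl 72h mouse 24 they lay 1.02, 0.49 and 0.37 above it. CIE 0h mouse 11 had the striatal list 1.18 and the microglial list 0.45 above its group. Across groups the microglial list ran from 8.19 to 9.04 in single mice, with medians of 8.54 in CIE and 8.78 in Ctrl mice at 0h. The lymphocyte list (12 of 15 measured) ran from 5.40 to 5.76 and that of monocytes, macrophages and neutrophils (11 of 12) from 5.04 to 6.11 on the log2 scale. All 10 striatal markers measured lay above 0 for CIE minus Ctrl at 0h, with a median of 0.80. Of these 10, limma called 0 (7.28% of probesets), and 6 passed an unadjusted p of 0.05, where 28.6% of probesets did. At 8h, 9 of 11 markers of monocytes, macrophages and neutrophils lay above 0, with a median of 0.15. Of these 11, limma called 0 (3.39% of probesets), and 3 passed an unadjusted p of 0.05, where 28.1% of probesets did. The mean of that list ran from 5.04 to 5.31 in Ctrl and from 5.23 to 5.69 in CIE mice. Of 14 microglial markers at 8h, 2 fell and none rose, where 3.39% of probesets passed in either direction. The list mean ran from 8.60 to 8.90 in Ctrl and from 8.41 to 8.91 in CIE mice. The part of these cell types in the levels of the interferon-stimulated genes was not tested.

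At 8h the lean toward CIE differed between the repeat groups. In repeat group 1 the median of the 35 differences was 0.01, with 19 above 0, and in repeat group 2 it was 0.74, with 31 above 0, whereas the median over all genes was -0.02 and 0.07. The GTPases stood furthest apart, with Gbp2 at -0.34 in repeat group 1 and 2.67 in repeat group 2, Iigp1 at 0.23 and 2.76, and Irgm1 at -0.02 and 1.70. In a test of the difference between the repeat groups limma called 0 of the 35 at an FDR of 0.01 (4.27% of probesets; 16 genes at an unadjusted p of 0.05, against 29.7%). At an FDR of 0.05, 4 genes passed (13.9% of probesets): Gbp2 (adjusted p = 0.0246), Ifit2 (0.0409), Irgm1 (0.0411) and Gbp7 (0.0445). Without CIE mouse 69 or 23, 1 gene was called. The value of repeat group 1 depends on which mouse is left out, being 0.33 without Ctrl mouse 66 and -0.20 without CIE mouse 69. That of repeat group 2 was 0.88 without CIE mouse 15 and 0.78 without CIE mouse 23, each of which leaves 1 CIE mouse. Over the 35 genes, the high Ctrl mouse 66 was in repeat group 1, and the CIE means were 6.89, 6.97 and 7.55 in repeat group 1 (mice 40, 51 and 69) and 7.52 and 7.66 in repeat group 2 (mice 15 and 23), so high CIE mice occurred in both.

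**Figure D5:**
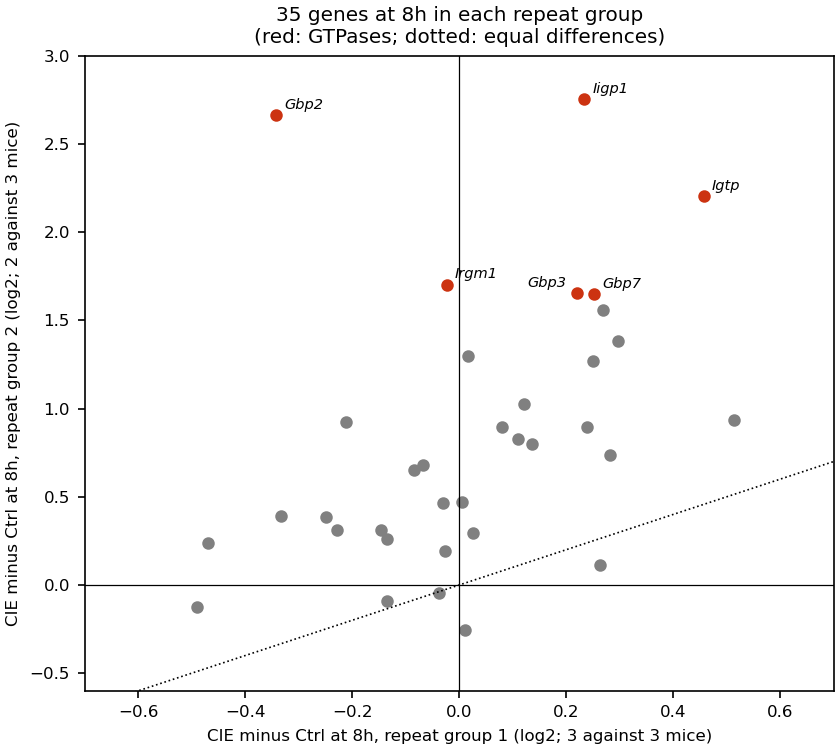
Difference between CIE and Ctrl at 8h (log2) for each of the 35 genes in repeat group 1 (x axis, 3 against 3 mice) and repeat group 2 (y axis, 2 CIE against 3 Ctrl mice), with the 6 GTPases in red and equal differences on the dotted line. Most points lie above the line, with Gbp2 at -0.34 and 2.67.

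Other genes of the pathway were read from lists by role. Interferon transcripts themselves gave dim signals: Ifng lay between 3.64 and 4.14 and Ifnb1 between 4.13 and 4.96 in all 47 mice, and the mouse with the highest mean over the 35 genes had the highest Ifnb1 signal in 0 and the highest Ifng signal in 3 of the 8 groups. Of 10 interferon and receptor genes, 1 rose at 8h and 0 passed at 0h, 72h and 7d by limma (2, 3 and 2 at an unadjusted p of 0.05), where 3.39% of probesets passed at 8h and 7.28%, 0.528% and 0.948% at the other times. It was Ifnlr1, the interferon lambda receptor chain, with log2 levels of 4.78 to 5.24 in Ctrl mice and of 5.27, 5.30, 5.42, 5.42 and 5.57 in CIE mice. All CIE mice lay above the Ctrl mice, and the difference was 0.41 ± 0.10 (SE, adjusted p = 0.00872). The Ifnlr1 probeset is dim, with a mean at percentile 35.5 of all probesets. Fits with 1 mouse left out or with repeat group as a term covered the 35 genes alone. Calls in the pathway lists have no such check.

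Of 14 sensors and adaptors, 1 fell at 0h and 0 passed at 8h, 72h and 7d by limma (5, 2 and 6 at an unadjusted p of 0.05, where 28.1%, 14.3% and 17.5% of probesets passed). Over all probesets 3.58% fell at 0h. Tmem173, which encodes the DNA-sensing adaptor STING, had levels at 0h of 5.95 to 6.88 in Ctrl and of 5.66 to 5.93 in CIE mice, and fell by 0.48 (adjusted p = 0.00536). Of 10 measured genes of JAK-STAT signalling and its brakes, 1 fell at 0h and 1 rose at 8h, where 3.58% of probesets fell and 3.39% passed in either direction, and both encode feedback inhibitors of cytokine receptors; 0 passed at 72h and 7d by limma (0 and 2 at an unadjusted p of 0.05). Socs1 had levels at 0h of 4.60 to 5.08 in Ctrl and of 4.12 to 4.54 in CIE mice, without overlap, and fell by 0.57 (adjusted p = 7.99e-05), while at 8h it differed by 0.30 (adjusted p = 0.0494). Socs3 had levels at 8h of 5.48 to 5.73 in Ctrl mice and of 5.94, 5.95, 6.08, 6.21 and 6.54 in CIE mice, and rose by 0.49 ± 0.10 (SE, adjusted p = 0.00171).

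Of 43 measured further interferon-induced genes (51 listed), 36 lay above 0 at 0h with a median of 0.20, 37 at 8h (0.31), 27 at 72h (0.08) and 24 at 7d (0.02). Of all genes, 52.7%, 53.7%, 48.4% and 47.2% lay above 0. At 0h 1 of the 43 rose, where 3.69% of all probesets did. It was Tap1, the peptide transporter of MHC class I loading, with levels of 5.68 to 7.49 in Ctrl and of 6.56 to 8.55 in CIE mice and a difference of 1.01 ± 0.27 (SE, adjusted p = 0.00867). At 8h 2 rose, at 72h 1 rose, and at 7d 0 passed by limma (5 at an unadjusted p of 0.05), against 3.39%, 0.528% and 0.948% of probesets passed in either direction. Oas3, an oligoadenylate synthetase, had levels of 4.42 to 4.59 in Ctrl mice and of 4.64, 4.82, 4.83, 4.90 and 5.02 in CIE mice (difference 0.35 ± 0.08, adjusted p = 0.00600). Phf11d had levels of 5.85 to 6.20 in Ctrl mice and of 6.45, 6.50, 6.56, 6.64 and 7.03 in CIE mice, and rose by 0.65 at 8h (adjusted p = 0.000420) and by 0.59 at 72h (0.00114), with CIE mice above all Ctrl mice at both times.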

How the data were processed

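RNA from the PFC of 47 individual mice was measured on Affymetrix mouse arrays, 1 array a mouse. The deposited values are log2 expression levels per probeset, which the authors made with RMA. They corrected background and quantile-normalized the arrays of each hybridization batch apart, quantile-normalized all arrays together, and ran ComBat with repeat group as the batch in PFC. Batch correction applied before deposit can remove part of a difference between repeat groups, and quantile normalization hides shifts common to a whole array. The number of arrays limits the precision of each value. All 47 value columns were used, and 0 were left out.

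GEO's platform annotation, with symbols updated, gave 1 symbol for 34945 probesets, several for 932 and none listed for 9160. A model with 8 group means was fitted across all 45037 probesets with limma 3.58.1 in R 4.3.3 (package data.table, version 1.17.8), with Benjamini-Hochberg adjustment over all probesets and an FDR of 0.01, as in the study. On simulated data, changes of 0.5 and 1 on the log2 scale were recovered for 66.5% and 92.5% of 200 changed probesets at 8h (45037 simulated). The changed probesets were drawn at random from all probesets, with independent noise at their own SD. The 35 genes had a median SD of 0.341 against 0.156 for all genes, and the simulation does not give the recovery for genes of such spread.

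The genes and lists were chosen with earlier results of these data known. Named genes were those called, the 4 of smallest p at 0h and at 8h, the 2 at 72h and at 7d, and Irf7, Irf9 and Stat2, with those called in each pathway list, and others are said to be chosen after their values were seen. Time differences within arms, the test of an ethanol effect that differs among times, and repeat groups without each mouse were added after the values were seen. Promoter windows are from RefSeq (GRCm38.p6). Alternatives were other probesets, repeat group as a term, array weights, centring, an intensity trend, dim probesets left out, an FDR of 0.05, each time point alone, and each mouse left out.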

Additional observations from a re-analysis of the deposited data

Results flagged for a closer look

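Single mice stood apart from their group for several of these genes, by the gap between the extreme mouse and its nearest neighbour as a share of the range of the group. Of 96 groups of values examined, 11 passed the 95% critical value for their size. Chance alone passes about 1 in 20, but these groups share mice and genes that vary together. The count of 11 therefore does not measure an excess over chance. Mean levels over the 35 genes put Ctrl 8h mouse 66 at 7.72 with the next mouse at 6.86 (0.825 of the range) and CIE 7d mouse 27 at 7.03 with the next at 6.58 (0.817). Mouse 66 was also apart for Gbp7 (8.76 against 7.75, 0.838), Irf7 (6.15 against 5.67, 0.821), Gbp3 (8.69 against 7.63, 0.695) and Oasl2 (5.99 against 4.83, 0.641). CIE 8h mouse 15, whose array stood apart over all probesets, was high for Dhx58 (5.65 against 4.98, 0.867) and low for Stat2 (6.26 against 6.80, 0.762). CIE 0h mouse 11, the mouse with the highest striatal marker list, was high for Irf7 (6.74 against 5.67, 0.865). CIE 72h mouse 3 was high for Oasl2 (5.88 against 5.08, 0.657), and CIE 7d mouse 13 was high for Dhx58 (4.87 against 4.56, 0.667).

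The ethanol effect on Ddx58 differed between 8h and 7d by 0.75 on the log2 scale (limma, adjusted p = 0.00993) on its brightest probeset, and by -0.08 and 0.18 on the 2 others. The call was lost in 35 of 47 fits that left out 1 mouse.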

How the results depend on the processing

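Counts are of the 35 genes called by limma. The share of all probesets called also moves with the setting and is not given for most settings, so a changed count alone is no result about these genes. At 8h and an FDR of 0.05 that share was 11.1% in the main fit and 17% with repeat group as a term. It was 5.54% without CIE 8h mouse 15 and 6.69% without Ctrl 8h mouse 66. With 1 mouse left out, the medians of the differences ran from 0.10 to 0.34 at 0h, 0.20 to 0.50 at 8h, -0.04 to 0.11 at 72h and -0.08 to 0.02 at 7d. Leaving out 1 mouse gave 0 to 1 called higher at 0h, 0 to 2 higher and 0 to 1 lower at 8h, 0 to 1 for 8h minus 7d, 1 to 5 for any ethanol effect, 0 to 2 among Ctrl groups, 10 to 21 among CIE groups, 7 to 20 for CIE 0h minus 7d, 6 to 15 for CIE 8h minus 7d, 0 to 2 for Ctrl 0h minus 7d and 0 to 1 for the repeat groups. At 8h, 2 genes were higher without CIE mouse 40, 1 without Ctrl mouse 66 or CIE mouse 51, and 1 was lower without Ctrl mouse 50. CIE 0h minus 7d had 7 without CIE 0h mouse 11 or 17 or CIE 7d mouse 45, and CIE 8h minus 7d had 6 without CIE 8h mouse 15 or 23 or CIE 7d mouse 65. Iigp1 at 0h ran from -0.14 without Ctrl 0h mouse 12 to 0.65 without CIE 0h mouse 43, and was -0.01 without CIE 0h mouse 11. With repeat group as a term, 1 gene was higher and 1 lower at 8h and 5 were higher in CIE 8h minus 7d. In repeat group 1 alone, 1 was lower at 8h, 0 were called for 8h minus 7d or CIE 8h minus 7d and 10 among CIE groups, with Gbp2 at -0.34 and Irgm1 at -0.023 at 8h, and the 8h median in repeat group 2 alone was 0.74. Array weights gave 2 higher at 0h, 1 higher and 2 lower at 8h, 1 higher and 1 lower at 7d, 2 lower for 8h minus 0h, 1 lower for 7d minus 0h and for 8h minus 7d, 6 for any ethanol effect, 2 among Ctrl groups, 4 for effects that differ among times and 3 for Ctrl 8h minus 7d. The call of Ddx58 for 8h minus 7d was lost (0 called) with centred arrays, with an intensity trend and among brighter probesets alone. Among brighter probesets, 0 were called for any ethanol effect, Ctrl groups or Ctrl 0h minus 7d, 11 among CIE groups and 7 for CIE 8h minus 7d. An FDR of 0.05 gave 2 higher at 0h, 4 higher and 1 lower at 8h, 1 lower at 7d, 8 for any ethanol effect, 2 among Ctrl groups, 1 for effects that differ among times, 24 and 22 for CIE 0h and 8h minus 7d, 4 for Ctrl 0h minus 7d and 4 for the repeat groups. The most variable probeset of each gene gave 1 call between repeat groups and turned Sp100 at 8h to 0.16. The causes of these changes were not tested. With each time point fitted alone, Irf8 at 0h was no longer called and Oasl1 at 0h was called higher. No paired analysis was possible because the mice are numbered across the study and groups share no number. Probesets near background limit Dhx58, Oasl1, Sp100 and Mx1. Of the pathway genes, Ifnlr1, Oas3 and Socs1 also gave dim signals.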
